A study of Homo sapiens with 8 samples.

Results

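Human intestinal epithelial cells (hIECs), differentiated in 2D from the embryonic stem cell line H9, were left untreated (normal hIECs) or given a mixture of interferon gamma (IFNγ) and tumour necrosis factor alpha (TNFα) to model an inflamed epithelium (inflamed hIECs). The comparison described here is the cytokine effect in hIECs that received no particulate matter, which covers 4 of the 8 RNA-seq libraries, 2 of normal hIECs and 2 of inflamed hIECs. In the study's methods the cytokines were given at 50 ng/ml each for 10 days, from differentiation day 4 to day 14, and the labels give a treatment of 10 days for every group. The other 4 libraries, 2 of normal and 2 of inflamed hIECs, came from cells that also had 100 μg/ml PM10, particulate matter that can be inhaled, for the last 7 days. They serve below as a second measurement of the cytokine effect, in a test of where the 2 measurements differ, and in an alternative fit over all 8 libraries. All groups came from the same single line and protocol, and nothing in the labels says that the 2 libraries of a group came from separate cultures. The p-values therefore measure the spread between these libraries, which may be technical.

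IFNγ binds a receptor that works through the kinases JAK1 and JAK2 and transcription factors of the STAT family. STAT dimers bind a short palindrome called the GAS element, and one of the first genes switched on in this way is IRF1, a transcription factor that acts on a second element, the ISRE. Through these elements IFNγ induces antiviral proteins, guanylate-binding proteins, the machinery that loads peptides on MHC molecules, and the chemokines CXCL9, CXCL10 and CXCL11, which attract T cells. TNFα binds TNFR1, frees the transcription factor NF-κB from its inhibitors, and induces adhesion molecules, chemokines, survival genes and the inhibitors that end the signal. The 2 cytokines act together on many genes that carry both kinds of element, and both are raised in the gut mucosa in inflammatory bowel disease.

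Stretches upstream of 10 genes that rose in inflamed hIECs are given here to show letters that resemble these elements and are counted in the results below. The genes were chosen, only genes with a match were printed, and the stretch with the most matches was taken. Each stretch thus holds matches by selection. All are from the human reference genome (RefSeq windows, GRCh38.p14), written 5′ to 3′ on the strand of the gene. Matches on either strand are in capitals, with 15 bases on each side in lower case. The letters searched were GAAA, 2 bases of any kind and GAAA (ISRE-like), TTC, 3 bases of any kind and GAA (GAS-like), and GGGA, 2 bases of any kind and TTCC (κB-like), and matches may overlap. A match is a description of letters and not evidence of binding.
CXCL10: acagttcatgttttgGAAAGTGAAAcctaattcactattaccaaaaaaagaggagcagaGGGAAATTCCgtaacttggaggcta
TAP1: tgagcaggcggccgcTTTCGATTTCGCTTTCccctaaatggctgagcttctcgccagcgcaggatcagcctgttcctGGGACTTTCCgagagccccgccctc
B2M: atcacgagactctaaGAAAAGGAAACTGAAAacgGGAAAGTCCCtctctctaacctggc
IFI27: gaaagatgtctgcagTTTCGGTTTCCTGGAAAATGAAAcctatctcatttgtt
IFIT3: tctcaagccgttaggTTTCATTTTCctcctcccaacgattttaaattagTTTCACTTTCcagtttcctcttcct
GBP1: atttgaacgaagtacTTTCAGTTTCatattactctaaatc
IRF1: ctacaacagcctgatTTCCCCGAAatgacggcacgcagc
ICAM1: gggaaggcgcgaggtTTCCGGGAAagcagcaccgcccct
NFKBIA: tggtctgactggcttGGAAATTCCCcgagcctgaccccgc
TNFAIP3: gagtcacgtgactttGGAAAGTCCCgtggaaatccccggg
CXCL10, TAP1 and B2M carry ISRE-like and κB-like letters in the same stretch. IFI27, IFIT3 and GBP1 carry ISRE-like letters, and in IFI27 a GAS-like match overlaps them. In IRF1 and ICAM1 the match is GAS-like, beginning 124 and 75 bases before the start, and in NFKBIA and TNFAIP3 it is κB-like, beginning 81 and 67 bases before the start. The stretches lie at chr4:76023650-76023733 (CXCL10, minus strand), chr6:32853752-32853853 (TAP1, minus), chr15:44711358-44711416 (B2M, plus), chr14:94110613-94110665 (IFI27, plus), chr10:89327826-89327899 (IFIT3, plus), chr1:89065311-89065350 (GBP1, minus), chr5:132490874-132490912 (IRF1, minus), chr19:10271030-10271068 (ICAM1, plus), chr14:35404806-35404845 (NFKBIA, minus) and chr6:137867177-137867216 (TNFAIP3, plus).

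Expression was compared as log2(FPKM + 1), where FPKM is the number of sequenced fragments scaled to transcript length and to the fragments mapped in the library. The log2 difference of a gene is the inflamed mean minus the normal mean on this scale, given with its standard error (SE) and n = 2 libraries per group, and it understates the change of weakly expressed genes. Of the 60558 genes in the files, 13700 had at least 1 FPKM in at least 2 of the 4 libraries and were tested with limma. A gene is said to rise or fall when its adjusted p-value (Benjamini-Hochberg over the 13700 genes) was under 0.05, and to rise or fall at least 2-fold when its log2 difference was also at least 1. Each library had its smallest non-zero value between 0.164 and 0.229 FPKM, so a value of 0 means below this level and not absence, and no fold is given against a group at 0. The 2 normal libraries differed more from each other than the 2 inflamed libraries did, with a median SD over genes of 0.085 against 0.051 on the log2 scale. Genes of mitochondrial DNA held 17.02% and 24.19% of the FPKM in the normal libraries and 16.94% and 16.95% in the inflamed libraries.

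The cytokines changed a large part of the measured genes, most of them by little. Of the 13700 genes, 6943 changed (50.7%), 3133 of them upward (22.9%) and 3810 downward (27.8%). At least 2-fold, 1298 changed (9.47%), with 578 that rose (4.22%) and 720 that fell (5.26%), and among these 523 and 592 were protein-coding. Counts of list members below are to be read against these shares of all genes. On this scale large changes leaned upward, with 167 rises and 105 falls of at least 4-fold and 30 rises and 10 falls of at least 16-fold. The added 1 limits how far a weakly expressed gene can fall. The median level was 6.35 FPKM in normal hIECs for genes that fell at least 2-fold. For genes that rose at least 2-fold it was 11.8 in inflamed hIECs. With 0.1 added in place of 1, 803 rose and 1157 fell at least 2-fold. How far the lean depends on the added 1 was not tested. The median log2 difference of all genes tested was -0.025. In all 578 and 720 genes both inflamed libraries lay outside the 2 normal ones, which was also true of 77.7% of all genes tested. Leaving out 1 library leaves its group with 1 sample, which is then assumed to vary like the other group, so calls lost in such a fit also reflect fewer samples. Leaving out 1 library at a time gave 535 to 623 rises and 690 to 750 falls of at least 2-fold, and without normal replicate 2, the library with the larger mitochondrial share, the counts were 535 and 690. Counts with no fold limit were less stable, with 1593 rises and 2157 falls without inflamed replicate 1 and 1636 and 2339 without inflamed replicate 2. In several lists counts of 3 or fewer calls given below changed by 1 or 2 in these fits. The plot of level against difference shows that rises reached genes of every level, from genes at 0 in normal hIECs to B2M, one of the most abundant transcripts.

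**Figure D1:**
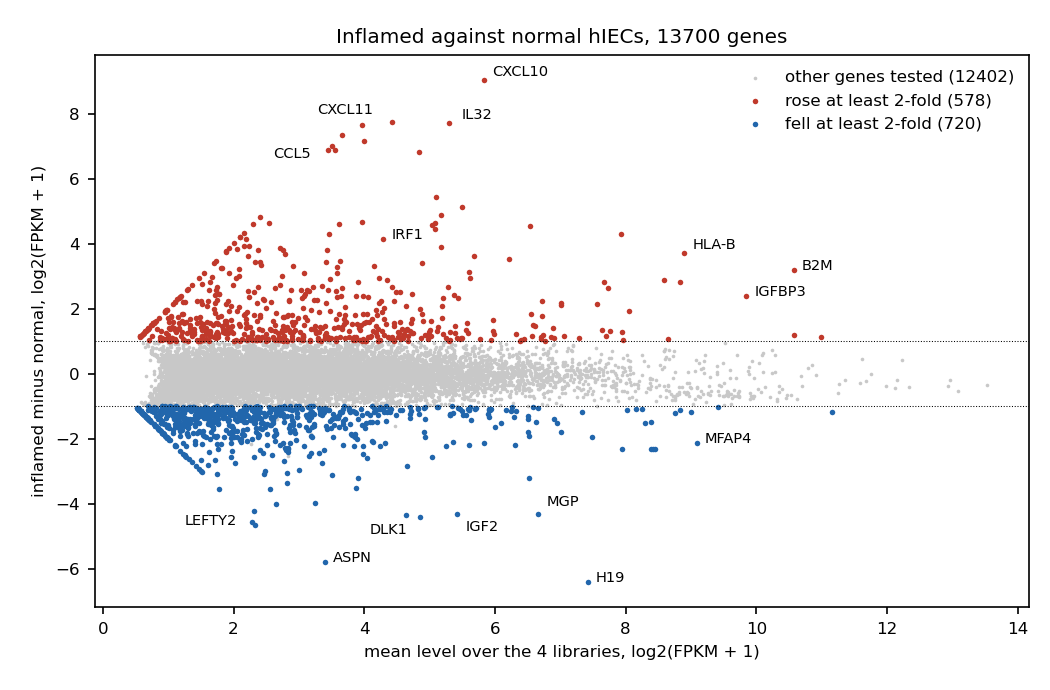
Mean level over the 4 libraries (horizontal axis, log2(FPKM + 1)) against the inflamed minus normal difference (vertical axis, same scale) for each of the 13700 genes tested, with the 578 genes that rose at least 2-fold in red, the 720 that fell at least 2-fold in blue and the dotted lines at a difference of 1 and -1. CXCL10 is the highest point at 9.03 and H19 the lowest at -6.41.

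The identity of the cells was checked against marker genes before the response was read. Of 10 intestinal epithelial markers, CDX2, VIL1, CDH1, MUC2, LYZ, CHGA, FABP1 and SI were at 0 in all 4 libraries. EPCAM was at 0.62 and 0.61 FPKM in normal hIECs and at 0 and 0.23 in inflamed hIECs, and only LGR5, a stem cell marker, passed 1 FPKM, with 2.63 and 2.01 in normal and 5.68 and 5.27 in inflamed hIECs. Of the wider list of 37 intestinal lineage genes, 27 were at 0 in all 4 libraries. Genes of mesenchymal cells were high in both groups, with VIM, an intermediate filament gene, at 923.4 and 903.7 FPKM in normal and 964.3 and 972.8 in inflamed hIECs, and COL3A1, a fibrillar collagen gene, at 1034 and 1014 against 706.3 and 708.8. Other epithelial genes were present in part. In the list of 37 epithelial identity and junction genes, 16 were at 0 in all 4 libraries. In all 23 members, these 16 included, were below the minimum for a test. The keratin genes KRT8 and KRT18 were at 373 and 383.3 and at 266 and 265.3 FPKM in normal hIECs. SOX9, a gene of intestinal progenitors and of other tissues, was at 15 and 13.5. Most defining genes of intestinal epithelium were thus at 0 while keratin and mesenchymal genes were high, and "hIECs" is used below as the label. Of 21 leukocyte genes, 15 were at 0 in all 4 libraries, CD3E and CD14 among them, and the summed level of the list was 12.74 and 12.9 FPKM in normal and 9.854 and 11.28 in inflamed hIECs. Of its 2 tested genes, 1 rose at least 2-fold (1.14) and 1 fell (-0.60). PTPRC, the pan-leukocyte marker, was at 0.52 and 0.35 FPKM in normal and at 0 in both inflamed libraries. Endothelial genes were present in part. PECAM1, CDH5 and VWF were at 0 in all 4 libraries, but EMCN was at 28.9 and 23.8 FPKM in normal and 6.45 and 6.15 in inflamed hIECs and EGFL7 at 28.3 and 30.9 against 12.4 in each inflamed library, and 3 of the 4 tested genes of the endothelial list fell. The summed level of that list was 75.5 and 71.5 FPKM in normal and 35.8 and 35.2 in inflamed hIECs, and its part in the results below was not tested. POU5F1 and NANOG of pluripotent cells were at 0 in all 4 libraries, while LEFTY2, which is on the list of pluripotency and early endoderm genes, was at 26.4 and 22.6 FPKM in normal hIECs and at 0 in inflamed hIECs.

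Members of the IFNγ signalling chain were unevenly affected. Of the 15 tested genes of the receptor and JAK-STAT core, 6 rose, 2 of them at least 2-fold, and 3 fell, and the median log2 difference of the list was 0.14. SOCS1, the inducible inhibitor of JAK kinases, was at 1.74 and 1.79 FPKM in normal hIECs and at 6.64 and 6.62 in inflamed hIECs, a log2 difference of 1.46 (SE 0.08, limma, adjusted p = 0.0001378). The libraries within each group were close, and the groups did not overlap, as in 77.7% of all genes tested. JAK2 and STAT2 rose by 0.71 and 0.68. SOCS3, a feedback inhibitor of the IL-6 receptor, fell by 0.84 on the log2 scale. The receptor genes IFNGR1 (0.14) and IFNGR2 (-0.26) and the kinase gene JAK1 (-0.05) did not pass the test, although IFNGR2 passed without normal replicate 2 (-0.36). STAT5A, which rose by 0.98, shares exons with the more abundant STAT5B, which did not pass (-0.13), so reads of the pair may have been split between them, and the STAT5A call was lost without normal replicate 2 (0.67) and without inflamed replicate 1 (0.83).

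Most interferon regulatory factors rose. Of 13 such factors and related activators tested, 11 rose, 9 of them at least 2-fold (against 4.22% of all genes), and 1, IRF3, fell by 0.28 on the log2 scale (a call lost with any 1 library left out, at -0.39 to -0.18), with a list median of 1.5. IRF1 went from 4.21 and 3.09 FPKM to 81.2 and 81.3 (log2 difference 4.15, SE 0.12, adjusted p = 1.836e-05). IRF8 went from 0.819 and 0.817 FPKM to 24 and 24.7. NLRC5, the activator of MHC class I genes, went from 0.195 and 0 to 14.1 and 15.4 FPKM. Neither of these overlapped between groups, which held for every gene that rose at least 2-fold and for 77.7% of all genes tested. CIITA, the corresponding activator of MHC class II genes, was at 0 in both normal libraries and at 0.27 and 0.38 FPKM in inflamed hIECs, below the minimum for a test. IRF7 rose by 1.31, and IRF9, whose exons overlap a more abundant readthrough gene, rose by 0.89.

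Interferon-stimulated antiviral genes were the most uniform of the larger lists. Of 43 tested, 42 rose and 37 rose at least 2-fold, with a median log2 difference of 1.93. IFI27, a mitochondrial interferon-induced protein, went from 1.57 and 1.77 FPKM to 304.1 and 303 (6.84, SE 0.07, adjusted p = 1.131e-06). XAF1, an antagonist of apoptosis inhibitors, was at 0 in both normal libraries and at 22.9 and 31.8 FPKM in inflamed hIECs. OAS1, which senses double-stranded RNA, went from 1.82 and 1.95 to 39.9 and 39.1 FPKM. MX1, a GTPase that blocks virus replication, rose by 3.45 and ISG15, a ubiquitin-like modifier, by 1.39. IFITM2 was the exception, at 243.3 and 323.1 FPKM in normal and 244.9 and 257.5 in inflamed hIECs, values that overlap (-0.36, passing the test, without normal replicate 1 and 0.05 without normal replicate 2).

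Guanylate-binding proteins and immunity-related GTPases attack intracellular pathogens. Of the 6 tested genes of this list, 5 rose, each at least 2-fold, with a median of 2.96. The 5 were GBP1, GBP2, GBP3, GBP4 and GBP5. GBP5 was at 0 in both normal libraries and at 128.7 and 127.7 FPKM in both inflamed ones. GBP1 went from 22.97 and 18.86 to 252.2 and 252.7 FPKM, GBP4 from 0 to 17.5 and 17.2, and GBP2 from 8.96 and 8.75 to 33.4 and 32.9. In the apolipoprotein L family, whose best known member APOL1 lyses trypanosomes, 4 of 5 tested genes rose at least 2-fold. APOL1 was at 22.5 and 24 FPKM, APOL3 at 16 and 14.7 and APOL6 at 10.4 and 9.79 FPKM in inflamed hIECs, and all were at 0 in both normal libraries. APOL2 went from 14.6 in each normal library to 55.4 and 53.2 FPKM.

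**Figure D2:**
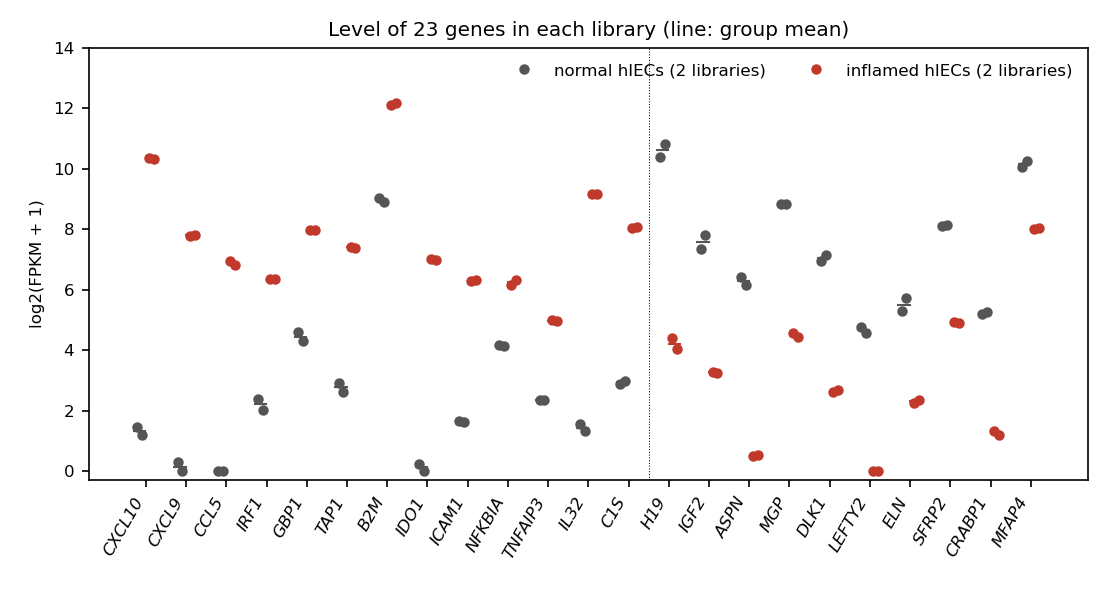
Level of 23 genes in each of the 4 libraries (points, log2(FPKM + 1), grey for normal and red for inflamed hIECs) with the mean of each group of 2 libraries (short lines), 13 genes that rose to the left and 10 that fell to the right of the dotted line. The genes shown were picked among those that changed at least 2-fold, so their groups do not overlap, as is the case for 77.7% of all genes tested.

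Most genes of MHC class I presentation rose. Of the 17 genes of the class I list tested, 15 rose and 13 rose at least 2-fold, with a median of 2.53, and the summed level of the list went from 2311 and 2231 FPKM to 10420 and 10720. B2M, the shared light chain, went from 525.1 and 481.9 FPKM to 4458 and 4690 (3.18, SE 0.08, adjusted p = 9.39e-06) and gained the most FPKM of all genes that rose at least 2-fold. HLA-B went from 132.2 and 128.6 to 1727 and 1716 FPKM, and HLA-C rose by 2.88. Reads of the HLA genes may be shared between near-identical copies, so the values of single HLA genes are uncertain. TAP1, the peptide transporter, went from 6.47 and 5.18 to 167.9 and 167.3 FPKM. CALR and CANX, general chaperones of the endoplasmic reticulum, rose by 0.19 and 0.34, calls that were lost without either inflamed replicate, and PDIA3 and MICA did not pass the test (0.20 and 0.16), although PDIA3 passed without normal replicate 1 (0.30).

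The immunoproteasome genes contrasted with those of the standard proteasome core. All 6 immunoproteasome genes rose, 5 of them at least 2-fold, with a median of 2.12. PSMB9 went from 5.69 and 6.83 FPKM to 161.9 and 154.2, PSMB8, which overlaps PSMB9, from 19.72 and 16.82 to 92.3 and 100.5, and PSMB10 from 12.9 and 14.2 to 57.2 and 56.9. The activator genes PSME1 and PSME2 rose by 1.48 and 2.25. Of the 14 constitutive core genes, 8 rose and 1, PSMA6 (1.08), rose at least 2-fold, with a median of 0.36.

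MHC class II genes rose in part. Of 14 tested, 10 rose, 4 of them at least 2-fold, and 2 fell, with a median of 0.59. CD74, the invariant chain, went from 6.52 and 5.07 FPKM to 156.2 and 161.2 (4.56, SE 0.11, adjusted p = 1.016e-05). HLA-DRA, the alpha chain of HLA-DR, went from 0.53 and 0.26 to 17.9 and 19.1 FPKM, and CTSS, the protease that trims CD74, from 0 in both normal libraries to 12.4 and 12.6. HLA-DRB1 was already at 86 and 87.8 FPKM in normal hIECs and rose by 0.71. HLA-DPB1 (-0.15) and HLA-DQB1 (-0.26) did not pass the test, although HLA-DQB1 passed without normal replicate 2 (-0.36).

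Chemokines held 3 of the 4 largest log2 differences of all genes tested. Of 33 chemokine genes, 10 were at 0 in all 4 libraries, 17 were tested, and 15 of these rose at least 2-fold. CXCL10, at chr4:76021118-76023497 on the minus strand (GRCh38), went from 1.74 and 1.27 FPKM to 1314 and 1283, a log2 difference of 9.03 (SE 0.10, adjusted p = 1.219e-06) and the largest of all genes tested. CXCL11 went from 0.53 and 0.43 to 316 and 311.8 FPKM, and CXCL9 from 0.22 and 0 to 220.8 and 221.6. CCL5, which attracts T cells and monocytes, was at 0 in both normal libraries and at 121.8 and 112.4 FPKM in inflamed hIECs. The monocyte attractants CCL2 and CCL7 went from 51.9 and 56 to 1090 in each inflamed library and from 4.46 and 3.94 to 226.4 and 223.5 FPKM. Of the neutrophil attractants, CXCL1 was at 5.56 and 5.57 FPKM in inflamed hIECs from 0.42 and 0.39, and CXCL6 was at 7.22 and 7.03 from 0.33 and 0.39. CXCL12, which is made by stromal cells without inflammation, was the 1 tested chemokine that fell, from 619.3 and 531.9 to 326.7 and 322.1 FPKM, by 0.82 on the log2 scale.

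Interleukins and growth factors of leukocytes rose in 8 of 11 tested genes, each at least 2-fold. IL32, a proinflammatory cytokine, went from 1.91 and 1.51 FPKM to 568 and 568.7 (7.72, SE 0.09, adjusted p = 1.219e-06). IL6 went from 0.80 and 1.11 to 26.4 and 21.3 FPKM, LIF from 3.03 and 3.16 to 33.2 and 35.7, and CSF1, which sustains macrophages, from 5.43 and 5.39 to 32.4 and 33.3. IL15 and its receptor chain IL15RA were at 0 in both normal libraries and reached 4.77 and 5.04 and 18.4 and 19.7 FPKM. TNF itself and IL1B were at 0 in all 4 libraries. UBD, which encodes the ubiquitin-like FAT10 protein, went from 0.20 and 0.50 to 189.3 and 190.4 FPKM, and OR2I1P, at 158.4 and 162 FPKM in inflamed hIECs and at 0 in normal ones, overlaps UBD on the same stretch, so its reads may belong to UBD.

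Among the genes of NF-κB, the feedback genes and the inducible subunits rose. IFNγ and TNFα were always given together, so no change in this report can be assigned to either of them alone. Of 28 tested NF-κB genes, 20 rose and 15 rose at least 2-fold, none fell, and the median was 1.16. TNFAIP3 (A20), which ends NF-κB signalling, went from 4.13 and 4.08 FPKM to 30.7 and 30.3 (2.62, SE 0.07, adjusted p = 1.279e-05). NFKBIA, the inhibitor IκBα, went from 17 and 16.6 to 69.9 and 79.7 FPKM, and BIRC3, a ubiquitin ligase of the TNF receptor complex, from 0 in both normal libraries to 4.05 and 3.92. The subunit genes NFKB1 and RELB rose by 1.84 and 1.68. RELA, which is regulated mainly by its location in the cell, did not pass the test (0.01), nor did TNFRSF1A, the gene of TNFR1 (0.02). The adaptors TRAF1 and TRAF2 rose by 1.39 and 0.82, and TRAF3 by 1.02, although the TRAF3 call was lost without normal replicate 1 (0.76) and without inflamed replicate 1 (0.84).

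Ligands and receptors of the TNF family rose at least 2-fold in 8 of 21 tested genes and fell at least 2-fold in 1, TNFRSF8 (CD30), which went from 3.06 and 4.92 FPKM to 0.44 and 0.32. TNFSF13B (BAFF), a survival factor of B cells, was at 0 in both normal libraries and at 13.6 and 13.3 FPKM in inflamed hIECs. TNFSF10 (TRAIL), a ligand that can trigger apoptosis, went from 2.52 and 2.81 to 18.4 and 16.7 FPKM, and the decoy receptor TNFRSF11B from 3.10 and 2.26 to 19.5 and 18.3. FAS rose by 1.85, but its exons overlap those of the more abundant ACTA2. Of 22 apoptosis genes, 12 rose, 4 of them at least 2-fold (18.2%, against 4.22% of all genes), and 3 fell. The survival genes BCL2A1 (3.34) and CFLAR (1.32) and the death genes PMAIP1 (2.02) and CASP8 (1.31) were the 4.

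Adhesion molecules and checkpoint ligands rose as well, at least 2-fold in 6 of 14 tested genes. ICAM1, which binds leukocyte integrins, went from 2.17 and 2.04 FPKM to 77.3 and 78.2 (4.66, SE 0.07, adjusted p = 2.648e-06). CD274 (PD-L1) went from 1.16 and 1.13 to 7.05 and 7.15 FPKM, and PDCD1LG2 (PD-L2) from 0.47 and 0.38 to 6.54 and 6.74. IDO1, which breaks down tryptophan, went from 0.18 and 0 to 128.3 and 125.4 FPKM (6.88, adjusted p = 2.648e-06), and WARS1, which charges tRNA with tryptophan, from 74.3 and 77.8 to 535.6 and 543.2. Of the 10 tested genes of tryptophan and kynurenine metabolism, 4 rose at least 2-fold and the median was 0.33. IDO1, WARS1, TDO2 (1.77) and KYNU (1.39) were the 4, KYNU from 0 in both normal libraries to 2.26 and 1.11 FPKM. Among genes that act further down the path, KYNU thus rose, while KYAT1 and QPRT fell by 0.32 and 0.38 on the log2 scale. Both calls were lost without inflamed replicate 1 (-0.29 and -0.39) and without inflamed replicate 2 (-0.34 and -0.36), and that of KYAT1 also without either normal replicate (-0.35 and -0.28).

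Complement genes moved both ways, with 5 of 16 tested genes rising and 5 falling at least 2-fold. C1S and C1R, the proteases of the first complement component, went from 6.29 and 6.95 FPKM to 264 and 268.6 and from 14.2 and 16.7 to 141.7 and 142.8. C3 went from 0.30 and 0.81 to 6.42 and 6.23 FPKM. CLU, an inhibitor of the terminal complex, went from 67.9 and 91.5 to 12.6 and 12.4 FPKM. The falls of at least 2-fold numbered 3 without normal replicate 2, 2 without inflamed replicate 1 and 3 without inflamed replicate 2. The acute-phase genes SAA1 and SAA2, which are near-identical copies, were at 0 in normal hIECs and at 4.86 and 6.60 and at 1.45 and 1.78 FPKM in inflamed hIECs. CASP1, the inflammasome protease, was at 0 in both normal libraries and at 8.99 and 10.2 FPKM in inflamed hIECs, and CASP4 went from 1.54 and 1.24 to 23 and 22.9.

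**Figure D3:**
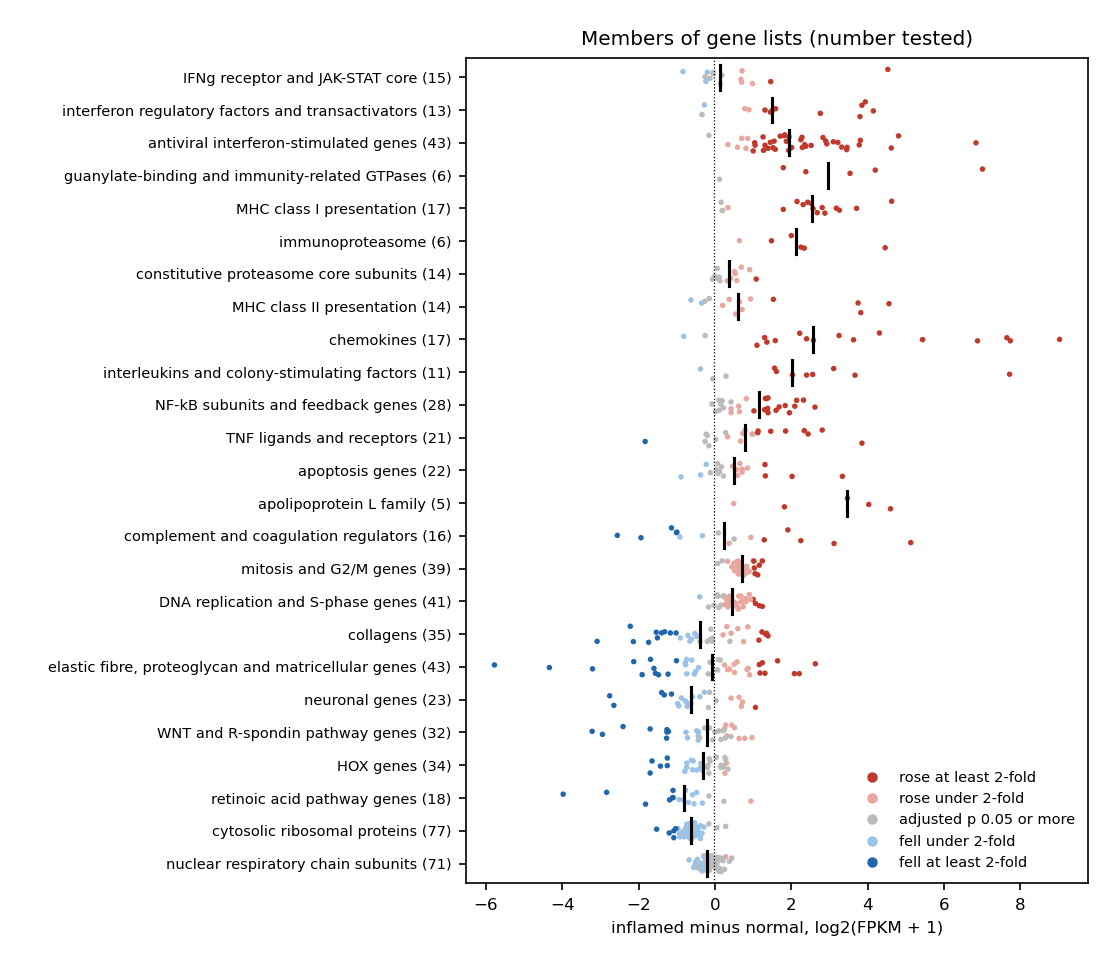
Inflamed minus normal difference, in log2(FPKM + 1), of each tested member (points) of 25 gene lists, with the list median as a black bar, the number tested in parentheses, and the median of all 13700 genes as a dotted line. Lists of the interferon, antigen presentation, chemokine and NF-κB genes lie to the right, while retinoic acid, neuronal and ribosomal protein genes lie mostly to the left.

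The imprinted genes H19, IGF2 and DLK1 were among the deepest falls. H19, an imprinted non-coding RNA of fetal tissue, went from 1358 and 1829 FPKM to 19.98 and 15.33, which is 90.3 times lower by the ratio of means and a log2 difference of -6.41 (SE 0.18, limma, adjusted p = 1.64e-05). IGF2, the growth factor gene next to H19, went from 160.6 and 223.5 to 8.67 and 8.50 FPKM, and DLK1, an imprinted Notch-related ligand, from 122.3 and 141.5 to 5.16 and 5.35. The normal libraries of H19 and IGF2 differed by more than their inflamed libraries, yet no inflamed value came near a normal one. CDKN1C, an imprinted inhibitor of the cell cycle, fell by 1.86. Of the 26 tested genes of the IGF axis and imprinted growth genes, 5 fell and 1 rose at least 2-fold. These are 19.2% and 3.85%, against 5.26% and 4.22% of all genes. The median of the list was -0.15 (-0.05 and -0.08 without inflamed replicate 1 and 2). The gene that rose at least 2-fold was IGFBP3, which binds IGFs in the extracellular space, from 444.6 and 358.1 to 2116 and 2111 FPKM (2.40, SE 0.11, adjusted p = 7.703e-05).

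Genes of the extracellular matrix moved in both directions, and small proteoglycan and elastic fibre genes were among those that fell. ASPN (asporin) went from 84.3 and 70.4 FPKM to 0.40 and 0.44 (-5.78, SE 0.10, adjusted p = 5.225e-06), and OGN (osteoglycin) from 120 and 102.6 to 4.42 and 4.61. MGP, an inhibitor of calcification, went from 451.2 and 451.6 to 22.6 and 20.5 FPKM. ELN (elastin) went from 38.4 and 51.6 to 3.80 and 4.05 FPKM, and MFAP4, an elastic fibre protein, from 1064 and 1212 to 257.2 and 259.9. In the other direction, TNC (tenascin C), a matrix protein of injured tissue, went from 85.1 and 83.8 to 512.8 and 544 FPKM, and LUM (lumican) and FN1 (fibronectin) rose by 1.31 and 0.58. Over the 43 tested genes of this list, 8 rose and 11 fell at least 2-fold, against 4.22% and 5.26% of all genes, and the median was -0.07 (-0.11 to -0.03 with 1 library left out).

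Collagen genes fell at least 2-fold in 10 and rose at least 2-fold in 5 of 35 tested members, with a median of -0.39 (-0.16 without inflamed replicate 1). COL13A1 went from 39.7 and 40.1 FPKM to 7.68 and 7.85, and COL9A3 of cartilage from 16.2 and 14.1 to 0.77 and 1.02. The basement membrane genes COL4A1 and COL4A2, which share a promoter region, rose by 1.35 and 1.33. COL3A1 fell by 0.53, while COL1A1, at 444.9 and 587.3 FPKM in normal and 659.7 and 680.7 in inflamed hIECs, did not pass the test (0.39, adjusted p = 0.05681) but passed under 8 of the 14 alternatives, at 0.19 to 0.75. MMP9, a gelatinase, went from 5.95 and 5.39 to 194.7 and 195.8 FPKM (4.88, SE 0.07, adjusted p = 2.648e-06), while TIMP1, an inhibitor of such enzymes and one of the most abundant transcripts, fell by 0.78. Of 17 tested contractile genes 9 rose, 2 of them at least 2-fold (11.8%, against 4.22% of all genes), and 1 fell. TPM1 of the actin filament went from 1441 and 1317 to 3036 and 3004 FPKM, while ACTG2 of visceral smooth muscle fell by 1.51. Fewer cells of a type and less RNA per cell cannot be told apart in these bulk libraries, here and in the identity genes that follow.

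Among identity genes, the simple epithelial keratins KRT8 and KRT18 went from 373 and 383.3 FPKM to 209.6 and 219.5 and from 266 and 265.3 to 141 and 126.1, and exons of the pair overlap in the annotation. CLDN1, a tight junction gene, went from 2.79 and 2.39 to 19.6 and 21.1 FPKM, and SPINT2, an epithelial protease inhibitor, from 14 and 12.5 to 2.12 and 2.32. Of 14 tested epithelial and junction genes, 1 rose and 2 fell at least 2-fold (7.14% and 14.3%, against 4.22% and 5.26% of all genes). SOX9, a transcription factor of progenitors, fell by 1.63. Of 23 tested neuronal genes, 15 fell and 5 rose (3 without inflamed replicate 2), with a median of -0.63. STMN2, a growth cone gene, went from 122.1 and 114.2 to 53.8 and 52.5 FPKM and NEFM, a neurofilament gene, from 128.3 and 119.1 to 48 and 49.1, while the defining neuronal gene ELAVL4 was at 0 in all 4 libraries.

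Among developmental signalling genes the lists differed. Of 32 tested WNT pathway genes, 14 fell, 8 of them at least 2-fold, and 8 rose, none at least 2-fold, with a median of -0.21 (-0.10 without normal replicate 1). Of all genes tested, 27.8% fell, 5.26% fell at least 2-fold and 22.9% rose. The 8 WNT genes that rose were thus near the share of all genes. The genes that rose numbered 5 without normal replicate 2, 2 without inflamed replicate 1 and 4 without inflamed replicate 2. SFRP2, a secreted WNT modulator, went from 275.7 and 282.1 FPKM to 29.3 and 28.8 (-3.22, SE 0.06, adjusted p = 5.225e-06), WNT4 from 7.11 and 6.35 to 0, WNT11 from 6.70 and 5.52 to 0.41 and 0.26, and DKK1 from 76.1 and 64.2 to 30.2 and 26.6. The fallen genes thus include both ligands and inhibitors of the pathway. Of 18 tested retinoic acid pathway genes, 15 fell, 7 of them at least 2-fold, and 1 rose, with a median of -0.80. CRABP1, which binds retinoic acid in the cytoplasm, went from 36 and 37.7 to 1.52 and 1.28 FPKM, DHRS3, an enzyme that limits retinoic acid, from 60.4 and 73.4 to 8.61 and 8.30, and the receptor gene RARB from 7.89 and 7.74 to 3.06 and 2.66. LEFTY2, a Nodal antagonist, went from 26.4 and 22.6 FPKM to 0 in both inflamed libraries. In the FGF, EGF and HGF list, 3 rose and 1 fell at least 2-fold of 18 (16.7% and 5.56%, against 4.22% and 5.26% of all genes). In the TGF-β and BMP list, 5 rose and 5 fell at least 2-fold of 42 (11.9% each), with TGFBR2 rising by 1.88 and BMP4 falling by 1.57. Of 34 tested HOX genes, 17 fell, 5 of them at least 2-fold and 4 of these 5 in the HOXD cluster, and 2 rose. HOXD1 went from 15.6 and 15 to 4.64 and 3.77 FPKM. The fallen HOX genes numbered 11 without inflamed replicate 1 and also 11 without inflamed replicate 2, and none rose in these 2 fits.

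Most cell cycle genes tested rose, by less than 2-fold in the majority. Of 39 genes of mitosis and G2/M, 37 rose and none fell, against 22.9% and 27.8% of all genes. The 6 that rose at least 2-fold are 15.4%, against 4.22% of all genes. The median was 0.70, and the summed level of the list went from 347.7 and 353.6 FPKM to 568.1 and 569. FOXM1, the transcription factor of the G2/M genes, went from 5.23 and 5.32 to 13.8 in each inflamed library, and MKI67, the proliferation marker, from 2.53 and 2.94 to 6.54 and 6.64. Of 41 DNA replication genes, 31 rose and 1 fell, against 22.9% and 27.8% of all genes. Their median was 0.44, and TYMS, which makes thymidylate, rose by 1.16. The replication genes that rose numbered 17 without inflamed replicate 1 and 18 without inflamed replicate 2. Among p53 targets and CDK inhibitors, CDKN2A rose by 1.48 and MDM2 by 1.07.

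Ribosomal protein genes fell together, by an amount smaller than 2-fold in most. Of 77 tested, 74 fell, 5 of them at least 2-fold, and none rose, with a median of -0.64. The falls of at least 2-fold (6.49%) were near the share of all genes (5.26%), while 27.8% of all genes fell. The summed level of the list went from 61490 and 63890 FPKM to 40120 and 40170. RPL18 went from 936.2 and 1005 to 450.7 and 502.8 FPKM, and RPL37 from 567.6 and 499.4 to 178.4 and 190.2. With quantile normalization 64 of the 77 fell, 1 rose and the median was -0.40. The falls of at least 2-fold numbered 1 without normal replicate 2, 1 without inflamed replicate 1 and 3 without inflamed replicate 2. Of 71 nuclear genes of the respiratory chain, 29 fell and 1 rose, against 27.8% and 22.9% of all genes, with a median of -0.20. Without inflamed replicate 1 and 2, 5 and 8 fell, and without normal replicate 1, 4 rose. Of the 13 protein genes of mitochondrial DNA, 1 fell, MT-ND3, and the normal libraries disagreed on the rest, so that 13 fell without normal replicate 1, 2 without normal replicate 2 and 0 without either inflamed replicate.

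Genes of stress and metal handling rose in part. SOD2, the mitochondrial superoxide dismutase, went from 8.11 and 5.15 FPKM to 58 and 51.2, and NQO1, a target of NRF2, from 7.62 and 7.96 to 40.2 and 40.8. Of 34 tested oxidative stress genes, 5 rose and 2 fell at least 2-fold (14.7% and 5.88%, against 4.22% and 5.26% of all genes). The median was 0.08 (0.15 without normal replicate 1 and 0.05 without inflamed replicate 1). MT2A, a metallothionein that binds zinc, went from 80.3 and 98.7 to 388.6 and 401.8 FPKM. FTH1, the ferritin heavy chain, went from 949.8 and 1078 to 2269 and 2351 FPKM. ATF3 was the leading gene of the unfolded protein and amino acid stress list, rising by 2.68. Of the 29 genes of that list, 2 rose at least 2-fold (6.90%, against 4.22% of all genes). VEGFC and ANGPTL4, secreted factors of vessel growth and lipid handling, went from 3.62 and 3.35 to 26.3 and 25 and from 7.99 and 8.24 to 93.7 and 96 FPKM.

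Some genes were listed at 0 in both libraries of one group and at 1 FPKM or more in both of the other. In 60 genes both normal libraries were at 0 and both inflamed libraries at 1 FPKM or more, and GBP5, OR2I1P, CCL5, XAF1, APOL1 and IL15RA were the 6 with the highest level. In 91 genes the reverse held, led by LEFTY2, the non-coding ENSG00000240801 within IGF2, CITED1, RPRM, TMEM114 and WNT4. In normal hIECs CITED1, a transcriptional co-regulator, was at 10.4 and 11.1 FPKM and TMEM114 at 6.97 and 7.06. CITED1 overlaps the more abundant PIN4, and ENSG00000240801 overlaps IGF2.

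The letters shown above were then counted in all windows of 300 bases, 250 before and 50 after a start. Windows were found by symbol for 10232 of the 13700 genes tested, 14983 windows in all. ISRE-like letters stood in 2.97% of these windows, in 14.4% of the 605 windows of genes that rose at least 2-fold, in 28.2% of the 149 windows of genes that rose at least 4-fold and in 2.22% of the 765 windows of genes that fell at least 2-fold. In all 35116 RefSeq windows the share was 3.57%. GAS-like letters stood in 6.33% of the windows of tested genes, 10.6% of those of genes that rose at least 2-fold and 5.75% of those that fell, and in 7.66% of all RefSeq windows. The κB-like letters stood in 1.66%, 5.62% and 1.96%, and in 1.61% of all RefSeq windows. Of the windows of the antiviral genes, 30 of 49 held ISRE-like letters, and of those of the chemokines, 7 of 13 held κB-like letters. None of the 39 windows of the mitosis genes held ISRE-like letters. A gene can have several windows that share bases, so these shares are descriptions.

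**Figure D4:**
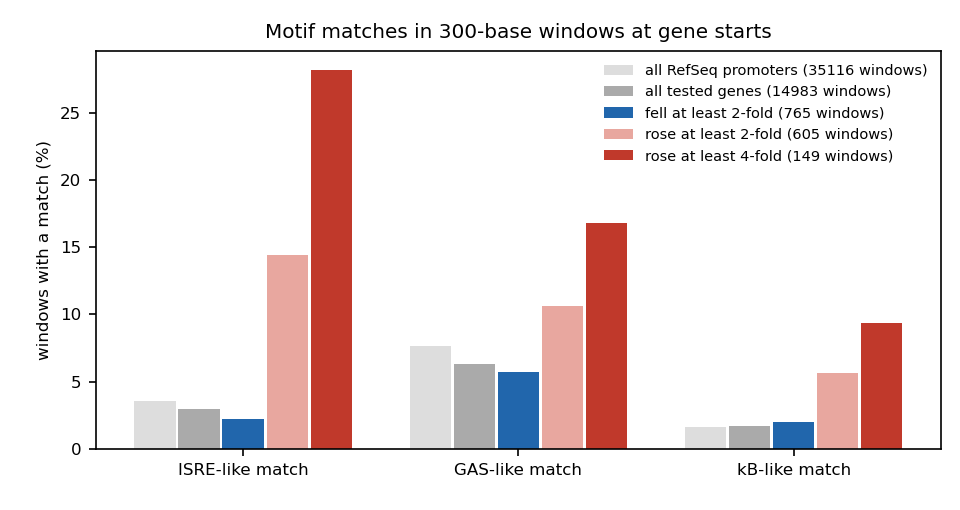
Share of 300-base windows at gene starts (vertical axis, percent) that hold ISRE-like, GAS-like or κB-like letters, for all RefSeq windows, all tested genes, genes that fell at least 2-fold, genes that rose at least 2-fold and genes that rose at least 4-fold. The bars of the genes that rose at least 4-fold are the tallest for each of the 3 sets of letters, at 28.2%, 16.8% and 9.4%.

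The cytokine effect was measured a second time in the 4 libraries that had PM10, which share no library with the comparison above. Of the 578 genes that rose at least 2-fold without PM10, 489 (84.6%) also rose at least 2-fold in inflamed against normal hIECs with PM10, where 718 genes did so (5.24% of all genes), and the 489 are 68.1% of those 718. Of the 720 that fell at least 2-fold, 560 (77.8%) also fell at least 2-fold with PM10, where 1039 did (7.58%), and they are 53.9% of those. The sign was the same in 572 of the 578 and in 712 of the 720. Pearson's correlation of the 2 log2 differences was 0.917 across the 13700 genes, a description across genes that are not independent replicates. With PM10 the median log2 difference of all genes was -0.106. CXCL10 differed between inflamed and normal hIECs by 9.03 without and 9.13 with PM10, and B2M by 3.18 and 3.02. H19 differed by -6.41 and -7.28.

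The difference between the 2 measurements was tested as an interaction in all 8 libraries with limma, and 910 genes (6.64%) passed, 283 with a higher (2.07%) and 627 with a lower signed effect with PM10 (4.58%). With median centring the split was 448 higher and 512 lower, and with quantile normalization 405 higher and 479 lower. Of the 578 genes that rose at least 2-fold, 119 passed, 71 with a larger and 48 with a smaller rise with PM10, and of the 720 that fell, 122 passed, 88 with a larger and 34 with a smaller fall. CXCL1 rose by 2.22 without PM10 and by 4.09 with it (interaction 1.87, adjusted p = 0.0003783), with 0.42 and 0.39 FPKM in normal and 5.56 and 5.57 in inflamed hIECs without PM10. SAA1 rose by 2.74 and 4.47. The falls of OGN, MGP and MFAP4 were larger with PM10, at -5.93, -5.93 and -3.70 against -4.34, -4.33 and -2.13. IL6 rose by 3.67 without and 2.49 with PM10 and HLA-DRA by 3.82 and 2.83. The log2 difference of MCAM, an adhesion molecule, was -1.24 without and 0.55 with PM10, and that of NEAT1, a nuclear non-coding RNA, was 1.43 and -0.29, so both changed sign. Leaving out 1 of the 8 libraries at a time gave between 270 and 1283 genes with an interaction, the fewest without normal PM10 replicate 1 and the most without normal replicate 1. The count was 305 without normal PM10 replicate 2, 291 and 320 without inflamed replicate 1 and 2, and 309 and 341 without inflamed PM10 replicate 1 and 2.

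**Figure D5:**
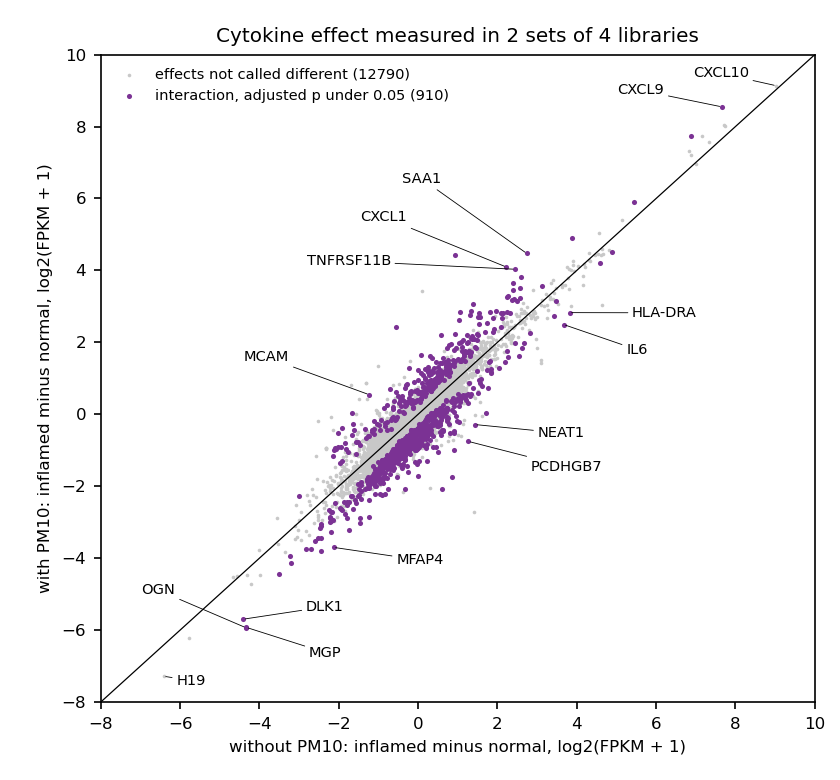
Inflamed minus normal difference in log2(FPKM + 1) without PM10 (horizontal axis) and with PM10 (vertical axis) for 13700 genes, with the line of equal effects and the 910 genes whose interaction passed the test in purple. Most genes lie near the line, CXCL10 at its upper end, while CXCL1 and SAA1 lie above it and OGN, MGP and MFAP4 below it.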

How the data were processed

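The authors isolated RNA with an integrity number above 7.5, made poly-A selected libraries without strand information, sequenced 2 × 100 bases, trimmed reads with Cutadapt and Sickle (Phred 20, reads under 50 bases left out), aligned them to GRCh38 with HISAT2 and estimated expression with StringTie. The annotation release is not given in the sources used here. The values the authors deposited are FPKM per gene and library. They hold no read counts, so depth is unknown beyond the lowest value listed and no count test was run. Without strand, reads of overlapping genes cannot be told apart (36.8% of tested genes share exon bases with another gene in GENCODE release 44, matched by Ensembl identifier for 99.5% of genes).

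The 13700 genes that reached 1 FPKM in 2 or more of the 4 libraries were tested as log2(FPKM + 1) with limma 3.58.1 (R 4.3.3), two-sided, letting the prior variance follow the mean level, and the interaction was fitted over all 8 libraries. The study states a 2-fold cut-off and no test. The script was tested on simulated data. RefSeq windows were matched by symbol. No 2 libraries held identical values. Plots used Python 3.11.15 and matplotlib 3.10.9.

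The comparison and the gene lists were chosen with earlier results of these data known. Genes were named by rule, as those with the largest log2 or FPKM difference, the highest of those at 0 in one group, all cytokine-response genes measured by the study, up to 5 members of each list by size of the difference, the markers, and up to 6 in each direction by interaction. Outside this rule IFNGR1, IFNGR2, JAK1, STAT2, TNFRSF1A, RELA, RELB, NFKB1, CIITA, TNF, IL1B, CCL2, CXCL6, CXCL12, HLA-DPB1, HLA-DQB1, HLA-DRB1, CALR, CANX, PDIA3, MICA, MX1, ISG15, IFITM2, IFIT3, KYAT1, QPRT, COL4A1, COL4A2, LUM, FN1, TIMP1, IRF3 and TNFRSF8 were chosen after their values were seen. Alternatives covered the pseudocount, the filter on low values, scaling, the variance trend, protein-coding genes only, the replicate number as a block, all 8 libraries in the fit, each library left out, and the bases searched for motifs. Some results are not reported here.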

Additional observations from a re-analysis of the deposited data

Results flagged for a closer look

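Genes named in the report are listed here when their cytokine effect differed between hIECs with and without PM10 by limma's interaction test over all 8 libraries, at an adjusted p under 0.05. The value after each gene is the log2 difference between inflamed and normal hIECs with PM10 minus that without PM10. It is 0 where the cytokine effect was the same with and without PM10, also where PM10 changed normal and inflamed hIECs alike. The median log2 difference of all genes was -0.025 without and -0.106 with PM10, and small negative values should be read against that shift.

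Among genes that rose without PM10, the difference was higher with PM10 for CXCL9 (0.89), CCL5 (0.85), CCL7 (0.47), IGFBP3 (1.05), LIF (0.45), BIRC3 (0.51), TNFRSF11B (1.59), PDCD1LG2 (0.78), CD274 (0.45), C3 (1.04), SAA1 (1.73), SAA2 (1.67), CLDN1 (0.67), TGFBR2 (0.41), MT2A (0.68), VEGFC (0.94), ACTA2 (0.4), CXCL1 (1.87), CXCL6 (1.23), COL4A1 (0.83), COL4A2 (0.78), LUM (0.32) and FN1 (0.47). It was lower with PM10 for GBP2 (-0.35), HLA-DRA (-0.99), IL6 (-1.17), WARS1 (-0.56), TDO2 (-1.04), MMP9 (-0.38), APOL2 (-0.33), TNC (-0.78), ATF3 (-0.69), NQO1 (-0.48), NEAT1 (-1.72) and HLA-DRB1 (-0.33). Several chemokine and acute-phase genes are in the first group, and IL6, HLA-DRA and TNC are in the second. A lower value can also come from a higher normal level. TNC was at 85.1 and 83.8 FPKM in normal hIECs without and 130.4 and 138.5 with PM10. In inflamed hIECs it was at 512.8 and 544 against 485 and 492.4. WARS1 and MMP9 were higher with PM10 in both normal and inflamed hIECs. Inflamed levels were lower with PM10 for HLA-DRA (17.9 and 19.1 against 10.7 and 10.1) and IL6 (26.4 and 21.3 against 6.45 and 6.5).

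Among genes that fell without PM10, the difference was lower with PM10 for DLK1 (-1.29), OGN (-1.59), MGP (-1.6), MFAP4 (-1.57), COL13A1 (-0.77), ELN (-0.93), NEFM (-0.75), SFRP2 (-0.72), CDKN1C (-0.91), HOXD1 (-0.99), DHRS3 (-0.9), RARB (-0.55) and COL3A1 (-0.6). It was higher with PM10 for TMEM114 (0.73), ACTG2 (0.73), DKK1 (0.66) and MCAM (1.78). TMEM114 was at 0 in all inflamed libraries, and its normal level was 6.97 and 7.06 FPKM without and 3.50 and 4.19 with PM10. ACTG2 was at 39.2 and 40.0 FPKM in inflamed hIECs without and 40.8 and 41.2 with PM10. Its normal level was 130 and 100.8 without and 71.1 and 70.6 with PM10. For these 2 genes the value thus reflects the normal libraries. Matrix genes such as OGN, MGP, MFAP4 and ELN are in the group with lower values.

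Of the genes that did not pass the test without PM10, the value was -0.37 for TNFRSF1A and 0.61 for MICA. These values rest on 2 libraries per group, and leaving out 1 library changed how many genes passed, as given in the report. What PM10 does to these genes was not tested beyond this interaction.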

How the results depend on the processing

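With a pseudocount of 0.1 in place of 1, 1157 genes fell at least 2-fold, and with a minimum of 5 FPKM, which left 8425 genes to test, 2467 fell and 394 fell at least 2-fold. With 1 library left out in turn, 1593 to 3093 genes rose and 2157 to 3163 fell, and 270 to 1283 had an interaction with PM10. The other alternatives (no filter, median centring, quantile normalization, mitochondrial genes left out, no variance trend, protein-coding genes only, all 8 libraries in the fit) kept these counts within 1.5 times. Of the 231 genes chosen by the naming rule or by hand that rose or fell at least 2-fold, 224 passed the test under all 14 alternatives, and none of the 297 such genes that passed changed sign. Among genes that did not pass, with 1 library left out JAK1 ranged from -0.17 to 0.06 (without normal replicate 1), IFITM2 from -0.36 to 0.05 (without normal replicate 2) and RELA from -0.05 to 0.06, and RELA was -0.01 with quantile normalization. The correlation across genes of the deviations of normal replicate 1 and inflamed replicate 1 from their group means was 0.061. With 2 libraries per group this cannot decide whether same-numbered libraries were handled together. With the replicate number as a block 3183 genes rose, 3894 fell, 581 rose and 727 fell at least 2-fold, and 777 had an interaction. With 2 libraries per group and no read counts, the precision of weakly expressed genes is not known.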
